A study of Homo sapiens with 4 samples.

Results

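The expressed antisense RNAs of U2OS cells, a human osteosarcoma cell line, are described here across cells given a single-domain antibody (sdAb) against MN1 and cells given a control sdAb. They are the genes of the antisense class of GENCODE release 29 that were chosen by their summed count, at least 150 over the 4 libraries, a measured value that does not use the difference between the groups. ZFAS1, the SNHG family of small nucleolar RNA hosts and genes on the X and Y chromosomes were left out. The rule gave 275 antisense RNAs of 5583 in the count table, of which 3643 had a count in any library, and 11 more reached the sum but were left out by name or chromosome. The group names are anti-MN1 for the cells treated with the anti-MN1 sdAb, which the labels call M11, and control for those treated with the control sdAb, with 2 libraries each. Both groups were the same cell line grown in DMEM with serum and antibiotics, and the labels name no genetic change in either. The sources used here do not give the dose, the exposure time, how the antibody reached the cells or whether libraries came from separate cultures. The p-values therefore reflect only how the libraries of a group varied, and this variation may be technical.

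An antisense RNA is transcribed from the strand opposite a protein-coding gene, the sense gene, and its own product is usually a long RNA that encodes no protein. Many start close to the start of the sense gene and run away from it, as the outcome of transcription in both directions from a shared promoter region, and some of these carry the suffix -DT for divergent transcript. Others lie inside the sense gene or run across its end. Such RNAs are often rare and nuclear, many are removed quickly by the nuclear exosome, and a few, such as HOTAIR and KCNQ1OT1, are known for roles at chromatin.

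The libraries held 16075169 and 15970324 counts in anti-MN1 cells and 15740268 and 16816893 in control cells. Levels are CPM, a count scaled to the library's depth, here with TMM factors. The correlation of log2 CPM was 0.990 between the anti-MN1 libraries, 0.992 between the control libraries and 0.973 to 0.974 across groups. Of the mesenchymal markers, VIM, SPARC, COL1A1, RUNX2 and FN1 were present, while COL1A2 was at or near 0 (0 and 0.0646 CPM in anti-MN1 cells, 0.310 and 0.174 in control cells). With ALPL, the summed level of these 7 markers was 886 and 899 CPM in anti-MN1 cells and 1484 and 1456 CPM in control cells. COL1A1, SPARC, RUNX2 and FN1 fell, VIM and ALPL did not pass the test, and ALPL was higher in both anti-MN1 libraries (2.56 and 2.91 CPM, against 1.8 and 1.56 CPM in control cells). Of the markers of blood cells CD3E and HBB were at 0 in every library, and the 5 blood markers summed to at most 0.984 CPM in any library. The 2 neural markers, SNAP25 and RBFOX3, both fell and summed to 9.53 and 10.1 CPM in anti-MN1 cells and 15.4 and 15.2 CPM in control cells. The 3 epithelial markers summed to 2.75 and 1.87 CPM in anti-MN1 cells and 3.10 and 5.73 CPM in control cells, the 3 endothelial ones to 3.68 to 4.03 CPM in all libraries and the 2 hepatic ones to at most 0.0640 CPM. The part of these markers in the antisense results was not tested.

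The 275 antisense RNAs were mostly of low level. Their summed counts ran from 150 to 11715 with a median of 268, and their mean level from 2.30 to 181 CPM with a median of 4.14 CPM. Per kilobase of exon, the median level was 1.90 CPM for the antisense RNAs and 6.21 CPM for their sense genes. No antisense RNA was at 0 in any library, and the lowest count in a library was 15. A gene symbol was available for 203, of which 138 contain -AS and 39 end in -DT, and the other 72 carry clone names. They lay on 22 chromosomes, with 26 on chromosome 1, 22 on chromosome 3 and 22 on chromosome 5. All 275 passed the filter on low counts and were tested, which the rule on the summed count made likely. At the limit of the rule, DNAJC9-AS1 and AL021707.2 had a summed count of 150 and were included, and NALT1 and DENND3-AS1 had 149 and were not. DNAJC9-AS1 had 22 and 33 counts in anti-MN1 cells and 35 and 60 in control cells, and NALT1 had 26 and 30 counts in anti-MN1 cells and 43 and 50 in control cells.

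More antisense RNAs were lower than higher in anti-MN1 cells. Of the 275, 77 fell (28%), 22 rose (8%) and 176 did not pass an adjusted p of 0.05 by the quasi-likelihood test of edgeR, adjusted over all 17524 tested genes after Benjamini and Hochberg. Over all tested genes 21.6% fell and 23.7% rose, together 45.3%, against 36% of the antisense RNAs. The median log2 fold change, anti-MN1 over control, was -0.24 for the antisense RNAs and -0.00 for all tested genes, and 190 of the 275 lay below 0. In a bulk library, fewer cells with an RNA and less of it per cell cannot be told apart. The counts of calls depended on the test and on single libraries. DESeq2 called 44 antisense RNAs lower and 14 higher, and over all genes it called 2558 lower and 3405 higher. In edgeR without control library 1 the median log2 fold change of the antisense RNAs was -0.27. With upper-quartile factors 97 antisense RNAs were lower and 16 higher, while over all genes 4985 were lower and 3058 higher in place of 3789 and 4153.

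**Figure D1:**
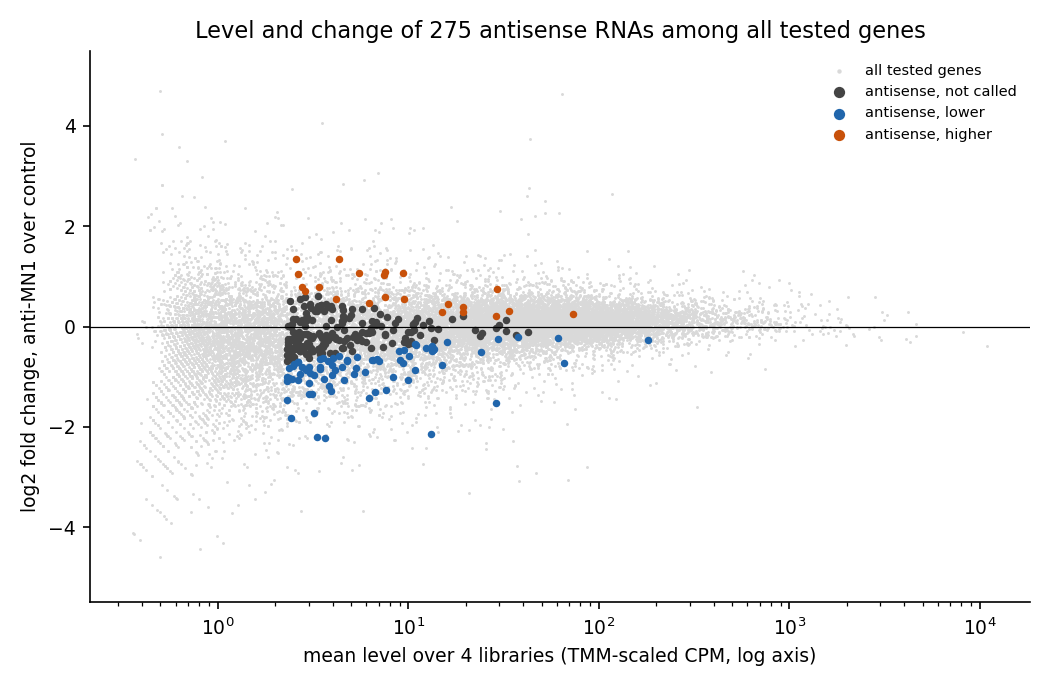
Change against level for every tested gene. The x axis is the mean level in CPM on a log scale and the y axis the log2 fold change, anti-MN1 over control; grey points are all tested genes and coloured points the 275 antisense RNAs by call. Antisense RNAs that fell (77) outnumber those that rose (22), and most sit at the left of the plot, at a median of 4.14 CPM.

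The separation of the libraries gave the same order. Both anti-MN1 libraries lay below both control libraries for 141 antisense RNAs and above them for 50, and the groups overlapped for the rest. Groups were apart for 69.5% of the antisense RNAs, close to the 70.7% of all tested genes, of which 35.4% lay below and 35.3% above. Summed over the 275, the antisense RNAs took 2136 and 2064 CPM in anti-MN1 cells and 2374 and 2424 CPM in control cells. The median antisense RNA stood at 3.90 and 3.81 CPM in anti-MN1 cells and at 4.53 and 4.69 CPM in control cells. The changes ranged from a log2 fold change of -2.23 to 1.34. Of the 99 that passed the test, 22 were lower and 7 higher by 2-fold or more, and 25 had changed by less than 1.5-fold.

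Part of this pattern was shared with other genes of the same level. Among genes with a summed count of 150 to under 300, 24.5% of 155 antisense RNAs fell and 4.52% rose. In the same range, 34.0% of 144 lincRNAs, long RNAs between protein-coding genes, fell and 5.56% rose, and 27.2% of 1001 protein-coding genes fell and 10.3% rose. Low genes of these 3 classes thus had more falls than rises. At 300 to under 1000 counts, 33.0% of 94 antisense RNAs fell and 8.51% rose, against 28.9% and 15.8% of 2301 protein-coding genes. Of 129 lincRNAs in that range 38.0% fell and 8.53% rose. At 1000 counts or more, the antisense RNAs were nearer to even, with 8 of 26 lower and 7 higher. There, 19.9% of 8406 protein-coding genes fell and 38.2% rose, and 50% of 56 lincRNAs fell and 25% rose. The median log2 fold change of the antisense RNAs in these ranges was -0.30, -0.23 and -0.08, and that of the protein-coding genes -0.19, -0.09 and 0.08. The differences between the classes were not tested.

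**Figure D2:**
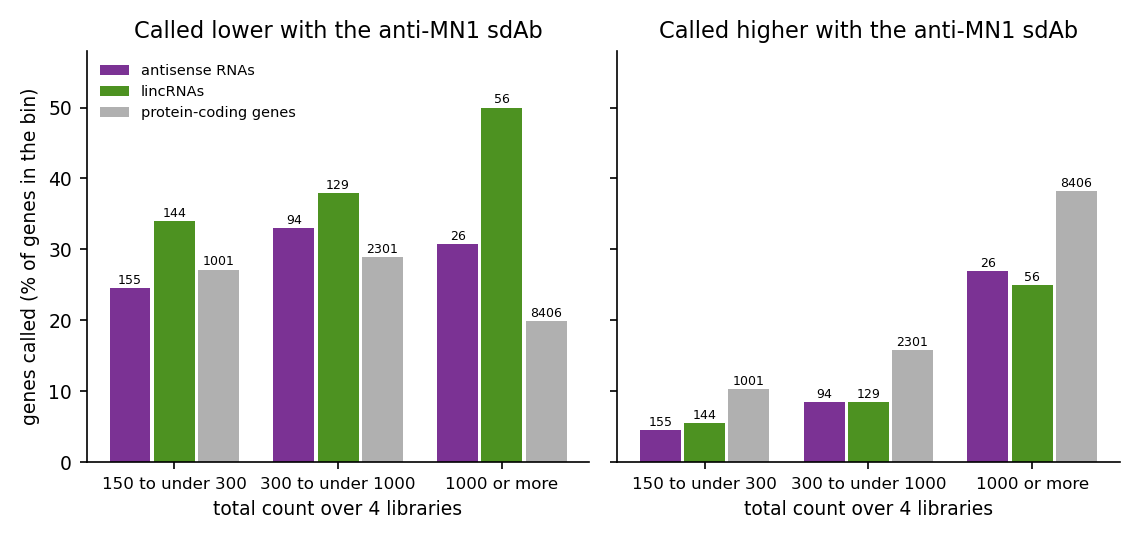
Share of genes that passed the test, by class and summed count. The x axis gives the range of the summed count over the 4 libraries and the y axis the percent of genes of that class that were lower (left) or higher (right) in anti-MN1 cells; figures over the bars are numbers of genes. The share that rose climbs with the count in the 3 classes shown, to 26.9% of 26 antisense RNAs and 38.2% of 8406 protein-coding genes.

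The largest fall was that of EDIL3-DT, the divergent transcript of EDIL3, at chromosome 5, 84384427 to 84490765 on the plus strand of GRCh38. It had 1.02 and 1.55 CPM in anti-MN1 cells, against 6.27 and 5.85 CPM in control cells, so that every anti-MN1 value was below every control value by a wide gap. The log2 fold change was -2.23 ± 0.28 (SE, n = 2 libraries per group), or 4.69-fold lower, with an adjusted p of 1.7e-12 in edgeR. EDIL3, which encodes a secreted matrix protein that binds integrins, fell less in log2 terms, with 176 and 182 CPM in anti-MN1 cells against 325 and 329 CPM in control cells (log2 fold change -0.87 ± 0.04). TGFB2-AS1, at chromosome 1, 218344196 to 218345678 on the minus strand, fell almost as far. It had 4.73 and 5.04 CPM in anti-MN1 cells and 22.5 and 20.4 CPM in control cells (log2 fold change -2.13 ± 0.15, edgeR adjusted p = 7.6e-32). By GENCODE, none of its exonic bases lay in an exon of a gene on the other strand. The RefSeq start of TGFB2 lies 899 bases upstream of the GENCODE one, within the span of TGFB2-AS1. By RefSeq the 2 genes therefore overlap. TGFB2, the ligand of the TGF-beta family on the other strand, moved with it, at 37.0 and 36.0 CPM in anti-MN1 cells against 119 and 109 CPM in control cells (log2 fold change -1.64 ± 0.06).

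In several other pairs the antisense RNA and its sense gene both fell. GAS6-AS1, at chromosome 13, 113815630 to 113845744, had 16.1 and 13.7 CPM in anti-MN1 cells and 41.8 and 43.4 CPM in control cells (log2 fold change -1.52 ± 0.10, edgeR adjusted p = 2.06e-34). GAS6 encodes the ligand of the AXL family of receptor kinases, and it fell by 0.66 on the log2 scale, less than its antisense RNA. NKILA, an RNA described as an inhibitor of NF-kappaB signalling, had 3.97 and 2.78 CPM in anti-MN1 cells against 7.07 and 10.9 CPM in control cells (log2 fold change -1.42 ± 0.21). Its neighbour PMEPA1, a TGF-beta target that limits TGF-beta signalling, had 113 and 109 CPM in anti-MN1 cells and 186 and 192 CPM in control cells. LOXL1-AS1 fell by 0.48 on the log2 scale and LOXL1, an enzyme that cross-links elastin, by 1.30, so here the sense gene moved more. TENM3-AS1, named after its values were seen, had 6.72 and 6.20 CPM in anti-MN1 cells against 14.5 and 12.6 CPM in control cells, while TENM3, a cell adhesion protein, fell by 1.45 on the log2 scale.

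HOTAIR and KCNQ1OT1, both known for roles at chromatin, were among the 12 largest falls of RNAs with a gene symbol, as were EMX2OS, KMT2E-AS1 and H1-10-AS1. HOTAIR, transcribed from the HOXC cluster at chromosome 12, 53962308 to 53974956, had 3.39 and 4.26 CPM in anti-MN1 cells and 7.88 and 11.1 CPM in control cells (log2 fold change -1.31 ± 0.19, edgeR adjusted p = 1.83e-09). Its sense gene HOXC11, a homeobox transcription factor, had 11.2 and 11 CPM in anti-MN1 cells and 15.9 and 16.1 CPM in control cells. The groups did not overlap for either. KCNQ1OT1, the imprinted RNA inside the potassium channel gene KCNQ1, had 4.54 and 4.46 CPM in anti-MN1 cells and 10.7 and 10.8 CPM in control cells (log2 fold change -1.26 ± 0.18). KCNQ1 did not pass the test (log2 fold change 0.43 ± 0.53), at 0.704 and 1.16 CPM in anti-MN1 cells and 0.807 and 0.579 CPM in control cells. EMX2OS had 1.73 and 1.68 CPM in anti-MN1 cells and 4.34 CPM in both control libraries, and EMX2, a homeobox gene, did not pass the test (log2 fold change 0.01 ± 0.31). KMT2E-AS1, beside the chromatin regulator KMT2E, had 2.49 and 2.20 CPM in anti-MN1 cells and 5.40 and 5.33 CPM in control cells. H1-10-AS1, beside the linker histone gene H1-10, had 2.62 and 1.94 CPM in anti-MN1 cells and 5.89 and 5.21 CPM in control cells. KMT2E and H1-10 both fell, by 0.22 and 0.38 on the log2 scale, though KMT2E lost its call when control library 1 or anti-MN1 library 1 was left out.

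The remaining falls of the 12 largest stood beside sense genes of low level. LUARIS, inside the ubiquitin ligase gene HECW1, had 1.34 and 1.03 CPM in anti-MN1 cells and 4.16 and 6.77 CPM in control cells (log2 fold change -2.20 ± 0.30). HECW1 did not pass the test, at 2.69 and 3.55 CPM in anti-MN1 cells and 2.79 and 3.36 CPM in control cells, so that LUARIS changed at a sense gene with overlapping groups. TSPEAR-AS1 had 1.15 and 0.969 CPM in anti-MN1 cells and 4.03 and 3.53 CPM in control cells, and TSPEAR fell as well, by 1.96 on the log2 scale from a low level, a call that was lost without control library 1. PCAT7 had 2.17 and 1.61 CPM in anti-MN1 cells and 4.03 and 4.28 CPM in control cells, and its sense gene FBP2, a muscle enzyme of glucose synthesis, was too low to be tested. The anti-MN1 libraries were both below the control libraries for these 3 antisense RNAs.

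**Figure D3:**
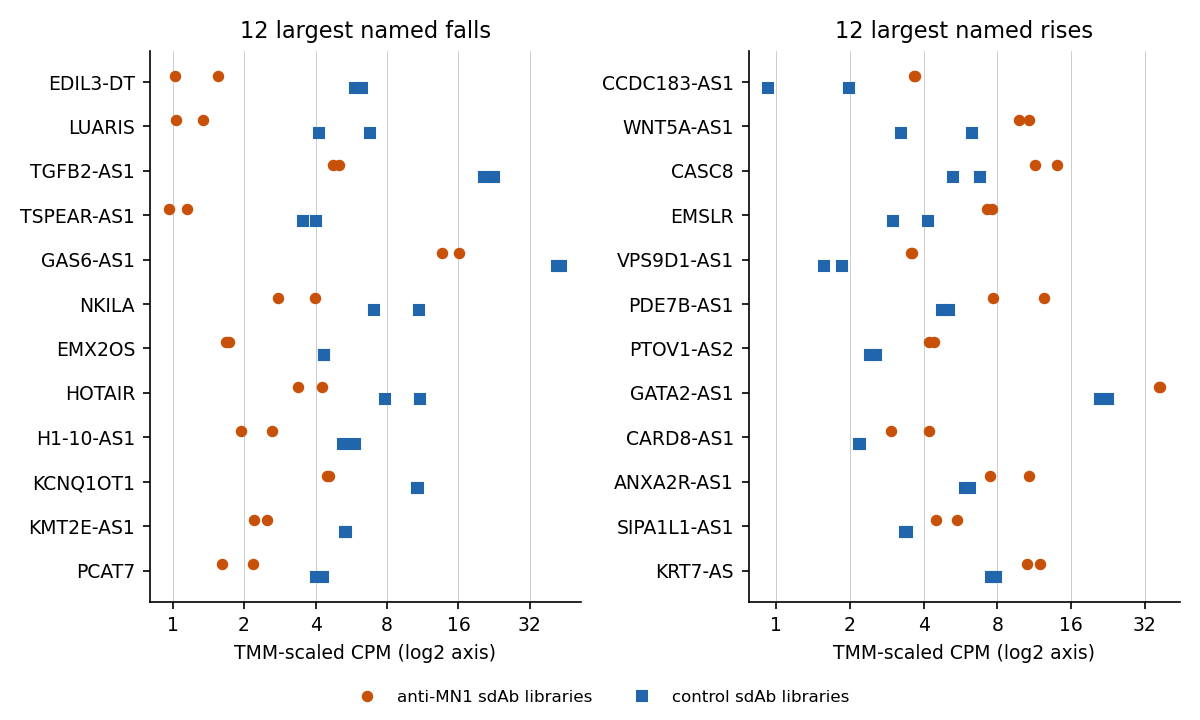
Level in every library of the 12 antisense RNAs with a gene symbol that fell most and the 12 that rose most among those with separate groups. The x axis is CPM on a log scale, each row is an RNA and each point a library. EDIL3-DT stands at 1.02 and 1.55 CPM in anti-MN1 cells and 6.27 and 5.85 CPM in control cells, and CCDC183-AS1 at 3.65 and 3.68 CPM in anti-MN1 cells and 1.99 and 0.926 CPM in control cells.

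Fewer antisense RNAs rose than fell, and 7 of the 22 rises and 22 of the 77 falls were 2-fold or more. CCDC183-AS1 had 3.65 and 3.68 CPM in anti-MN1 cells and 1.99 and 0.926 CPM in control cells (log2 fold change 1.34 ± 0.32, edgeR adjusted p = 0.000167). Its control libraries differed, and without control library 1 the log2 fold change was 1.98. WNT5A-AS1, inside the gene of the Wnt ligand WNT5A at chromosome 3, 55487699 to 55488308, had 10.7 and 9.82 CPM in anti-MN1 cells and 3.23 and 6.31 CPM in control cells (log2 fold change 1.10 ± 0.19). WNT5A rose with it, at 729 and 752 CPM in anti-MN1 cells and 469 and 451 CPM in control cells. PDE7B-AS1 had 12.4 and 7.69 CPM in anti-MN1 cells and 5.09 and 4.75 CPM in control cells, and PDE7B, which breaks down cyclic AMP, rose by a log2 fold change of 0.79 ± 0.15. GATA2-AS1 was the most abundant of these rises, with 37.0 and 36.6 CPM in anti-MN1 cells and 21.1 and 22.6 CPM in control cells (log2 fold change 0.75 ± 0.09). GATA2, a transcription factor best known from blood stem cells, had 101 and 105 CPM in anti-MN1 cells and 52.6 and 51.6 CPM in control cells, a larger rise than that of its antisense RNA. KRT7-AS rose by a log2 fold change of 0.55 ± 0.16 and KRT7, a keratin of simple epithelia, by 1.03 ± 0.03.

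Other rises stood beside a sense gene that fell or did not pass the test. VPS9D1-AS1 had 3.58 and 3.55 CPM in anti-MN1 cells and 1.86 and 1.56 CPM in control cells, while VPS9D1 had 6.27 and 6.78 CPM in anti-MN1 cells and 8.93 and 9.78 CPM in control cells. EMSLR had 7.29 and 7.62 CPM in anti-MN1 cells and 4.16 and 3.01 CPM in control cells, and IFT22, a subunit of the transport machinery of cilia that it does not overlap, fell by 0.38 on the log2 scale. CASC8, whose sense gene POU5F1B was too low to be tested, had 11.4 and 14 CPM in anti-MN1 cells and 6.82 and 5.27 CPM in control cells. PTOV1-AS2 and ANXA2R-AS1 rose by log2 fold changes of 0.79 ± 0.27 and 0.59 ± 0.18 beside PTOV1 and ANXA2R, which did not pass the test. These smaller rises were the less stable ones. CARD8-AS1 (log2 fold change 0.71 ± 0.29, edgeR adjusted p = 0.0372) and SIPA1L1-AS1 (0.56 ± 0.24, edgeR adjusted p = 0.0433) lost their call in 7 and 8 of 12 alternatives, and PTOV1-AS2 and ANXA2R-AS1 in 3 and 2. VPS9D1 lost its own in 3.

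Of the 6 most abundant antisense RNAs, all but CCDC144NL-AS1 changed by less than 1.5-fold. FGD5-AS1, the highest, had 162 and 167 CPM in anti-MN1 cells and 193 and 201 CPM in control cells, a 1.20-fold fall with an edgeR adjusted p of 2.25e-08. FGD5, which activates the small GTPase CDC42, was also lower, but lost its call in 5 of 12 alternatives. LUCAT1 had 79.7 and 78.7 CPM in anti-MN1 cells and 66.7 and 67.0 CPM in control cells, a 1.18-fold rise, while the adhesion receptor gene ADGRV1 on the other strand fell by 1.30 on the log2 scale. CCDC144NL-AS1 had 52.1 and 47.4 CPM in anti-MN1 cells and 81.7 and 82.2 CPM in control cells, a 1.65-fold fall. PSMA3-AS1 (log2 fold change -0.22 ± 0.07) and GABPB1-AS1 (-0.20 ± 0.08) fell slightly, and their calls were lost in 1 and 5 of 12 alternatives. OTUD6B-AS1 did not pass the test, with 41.7 and 40.2 CPM in anti-MN1 cells and 42.2 and 45.5 CPM in control cells, while OTUD6B, a deubiquitinating enzyme, rose by a log2 fold change of 0.38 ± 0.07.

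Several antisense RNAs that are often studied did not pass the test. CDKN2B-AS1, which runs across the cell cycle inhibitor CDKN2B, had 3.90 and 3.68 CPM in anti-MN1 cells and 4.28 and 4.75 CPM in control cells (log2 fold change -0.25 ± 0.23). HOXB-AS3 had 11.6 and 9.75 CPM in anti-MN1 cells and 12 and 8.86 CPM in control cells, with overlapping groups. ZEB1-AS1 had 3.45 and 5.17 CPM in anti-MN1 cells and 4.78 and 6.37 CPM in control cells, while ZEB1, a transcription factor of the mesenchymal state, rose by a log2 fold change of 0.22 ± 0.06, a call lost with upper-quartile factors and without control library 2. MCM3AP-AS1, TMPO-AS1, THAP9-AS1 and SNAI3-AS1 did not pass either, with log2 fold changes of -0.11, -0.15, 0.14 and -0.44. STARD4-AS1 did, at 6.01 and 5.10 CPM in anti-MN1 cells and 12.3 and 9.96 CPM in control cells. Some more were looked at after their values were seen. NRAV, known as a negative regulator of the antiviral response, did not pass the test (log2 fold change -0.06 ± 0.13), and CHROMR (-0.31 ± 0.12) and MIR23AHG (0.22 ± 0.09) passed it but lost their call in 6 and 7 of 12 alternatives.

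The sense genes rose and fell in shares near those of all protein-coding genes. The 275 antisense RNAs had 267 distinct sense genes, taken as the protein-coding gene on the other strand with the largest overlap or else the nearest, and 250 of these were tested. Of the 250, 59 fell (23.6%) and 74 rose (29.6%), against 22.2% and 28.4% (together 50.6%) of all protein-coding genes tested, with a median log2 fold change of 0.02. With upper-quartile factors the order turned, with 80 lower and 49 higher. Both partners were tested in 257 pairs. The antisense RNA had the lower log2 fold change in 176 of them, and the median difference, antisense minus sense, was -0.21. Among protein-coding genes the median was -0.19 at summed counts of 150 to under 300 and 0.08 at 1000 or more. The part of level in the difference between partners was not tested. The changes of the partners were related across the 257 pairs, with Pearson's r of 0.36 and Spearman's rho of 0.29, given as a description since all pairs share the same 4 libraries. On a level per kilobase, the antisense RNA was the higher partner in 61 pairs.

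Among the 77 antisense RNAs that fell, the sense gene fell in 26, rose in 17, did not pass the test in 31 and was not tested in 3. Among the 22 that rose, the sense gene rose in 7, fell in 6, did not pass in 8 and was not tested in 1. Calls in opposite directions were thus 23, and calls in the same direction 33 in all. Beside the 176 antisense RNAs that did not pass, the sense gene rose in 51, fell in 31, did not pass in 80 and was not tested in 14. Pairs of either kind would thus also arise between unrelated partners, and how many was not computed. DESeq2 gave 16 pairs with both partners lower and 11 in opposite directions. Without control library 1 the counts were 14 and 11, and without anti-MN1 library 1 there were 10 in opposite directions. The ratio of antisense to sense level was taken per kilobase and with 0.5 CPM added. It was lower in both anti-MN1 libraries than in both control libraries for 116 pairs and higher for 40. Of single tested genes, 70.7% had groups apart. A share for ratios of other gene pairs was not computed, so these counts are not shown to be particular to antisense pairs.

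**Figure D4:**
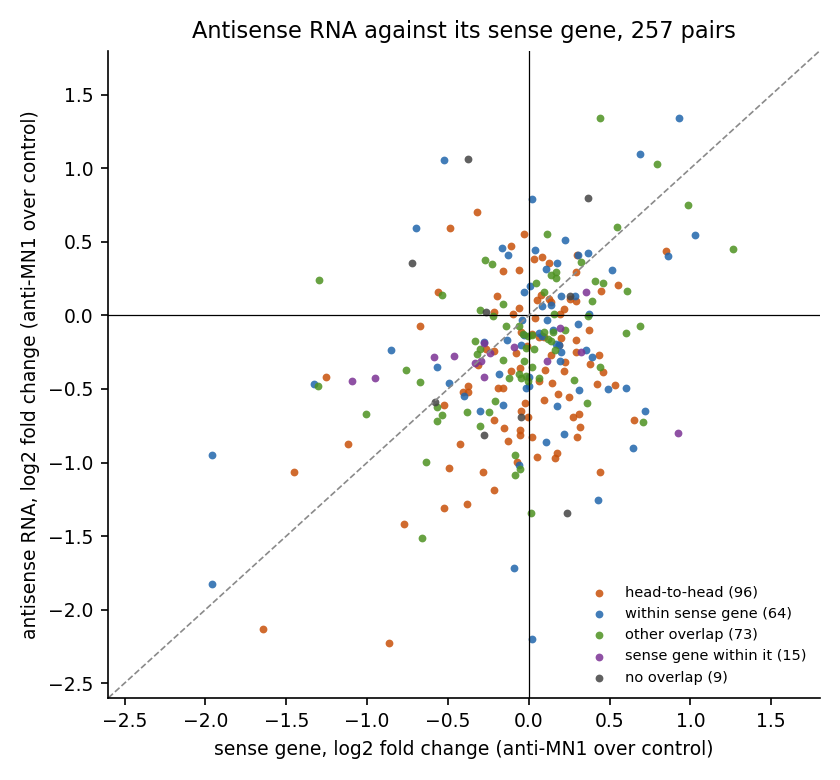
Change of each antisense RNA against that of its sense gene, for 257 pairs with both partners tested. Both axes are log2 fold changes, anti-MN1 over control, with the sense gene on x and the antisense RNA on y; colours give the layout and the dashed line marks equal change. TGFB2-AS1 and EDIL3-DT are the lowest head-to-head points, at -2.13 and -2.23 on y, and 176 of the 257 points lie under the dashed line.

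Reads from a gene and an overlapping gene on the other strand can be hard to assign, and whether the counting used strand is not stated in the labels. Of 2374 antisense genes without exon overlap 34.1% had no count, and of 402 that were overlapped on the opposite strand over at least 90% of their exonic bases 95.0% had none. Of 11070 protein-coding genes without exon overlap 14.2% had no count, and of 23 overlapped in that way 82.6% had none. Overlapped exons may therefore be undercounted. Reads of a sense gene may also have been counted for an antisense RNA inside it. WNT5A-AS1, KRT7-AS and AL391427.1, which rose with their sense genes, lie inside sense genes of much higher level. Whether their rises hold such reads was not tested. In 78 antisense RNAs, at least 90% of the exonic bases lay in the body of the sense gene. Among the 165 antisense RNAs with under 10% of their exonic bases in exons of other genes, 55 fell (33.3%) and 14 rose (8.48%). Of all tested genes 21.6% fell and 23.7% rose. Antisense exons in introns of a sense gene remain in this set, so it cannot show reads that came from there. Of the 275, 87 had no exonic base in an exon on the other strand.

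The pairs were then divided by layout. In 96 pairs the partners were head-to-head, with 5′ ends 1 to 1952 bases apart and a median distance of 382.5 bases. Of these antisense RNAs 34 fell (35.4%) and 7 rose (7.29%), with a median log2 fold change of -0.36. Of all 275, 28% fell and 8% rose, and of all tested genes 21.6% fell and 23.7% rose. Their 95 sense genes were more even, with 25 lower (26.3%) and 30 higher (31.6%) and a median of 0.02. The antisense RNA had the lower log2 fold change in 73 of the 96 pairs. Of 68 antisense RNAs inside the sense gene 16 fell (23.5%) and 5 rose (7.35%), with a median of -0.19. Of 78 that overlapped otherwise 20 fell (25.6%) and 7 rose (8.97%), with a median of -0.20. Of 24 that contain the sense gene 3 fell (12.5%) and 1 rose (4.17%), and of 9 without overlap 4 fell (44.4%) and 2 rose (22.2%). Of the 39 with the suffix -DT 11 fell (28.2%) and none rose, and 28 did not pass the test. Their share of falls was that of all 275 (28%), of which 8% rose. By DESeq2, 17 head-to-head antisense RNAs fell and 3 rose, and without control library 1 the counts were 20 and 1. The differences between layouts were not tested.

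The sequence before the start of 4 sense genes is shown. Their pairs were chosen from the 96 head-to-head pairs by the calls of the partners, so they do not stand for all such pairs. In the pairs of EDIL3 and TGFB2 both partners fell. In those of SAP30 and WASL the antisense RNA fell and the sense gene rose. By GENCODE, WASL-DT starts 65 bases upstream of the RefSeq start of WASL, in the printed stretch. SAP30-DT starts 508 bases upstream of that of SAP30, before the printed stretch, and EDIL3-DT and TGFB2-AS1 start downstream of the RefSeq start of the sense gene, past the printed stretches. The sequences are from RefSeq on GRCh38.p14, read in the direction of the sense gene and ending 1 to 65 bases before its RefSeq start. Capitals mark matches on either strand to any of the motifs searched. The TATA box was spelled TATAAA and the CCAAT box by its name. The GC box was spelled GGGCGG. The cAMP response element was spelled TGACGTCA. Matches to the GC box in EDIL3 overlap each other. EDIL3 is at chr5:84384881-84385117 on the minus strand, TGFB2 at chr1:218345086-218345335 on the plus strand, SAP30 at chr4:173370704-173370942 on the plus strand and WASL at chr7:123749068-123749253 on the minus strand.
EDIL3: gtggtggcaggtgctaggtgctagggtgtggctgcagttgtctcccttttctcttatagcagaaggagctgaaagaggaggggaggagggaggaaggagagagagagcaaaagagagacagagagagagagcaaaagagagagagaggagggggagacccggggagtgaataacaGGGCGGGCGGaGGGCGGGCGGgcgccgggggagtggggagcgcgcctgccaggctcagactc
TGFB2: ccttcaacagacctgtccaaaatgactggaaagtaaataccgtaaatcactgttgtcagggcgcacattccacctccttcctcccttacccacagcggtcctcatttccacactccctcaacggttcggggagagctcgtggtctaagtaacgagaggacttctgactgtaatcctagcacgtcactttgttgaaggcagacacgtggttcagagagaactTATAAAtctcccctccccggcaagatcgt
SAP30: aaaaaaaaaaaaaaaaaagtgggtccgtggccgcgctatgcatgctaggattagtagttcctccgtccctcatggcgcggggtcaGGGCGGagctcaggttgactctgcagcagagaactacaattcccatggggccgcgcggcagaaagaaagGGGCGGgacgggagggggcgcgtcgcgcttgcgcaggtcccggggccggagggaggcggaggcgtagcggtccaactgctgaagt
WASL: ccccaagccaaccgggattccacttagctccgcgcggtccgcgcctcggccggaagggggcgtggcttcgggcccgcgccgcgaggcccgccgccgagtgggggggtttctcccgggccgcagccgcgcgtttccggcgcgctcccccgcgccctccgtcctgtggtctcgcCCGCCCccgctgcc
The EDIL3 stretch held 4 matches to the GC box, SAP30 2 and WASL 1, and TGFB2 held a TATA box. The RefSeq start of TGFB2 lies 899 bases upstream of the GENCODE one, and that of SAP30 985 bases downstream. The 250 bases before a RefSeq start were found for 153 of the antisense symbols, 193 windows in all. Of these 48.7% held a GC box, against 42.6% of all 35116 windows, and 6.74% held a TATA box, against 10.7%. Windows with CCAAT came to 32.1% and 32.0%, and those with a cAMP response element to 2.07% and 1.65%. The median number of CG pairs was 19 in the antisense windows and 11 in all windows. Such matches describe letters and are not shown to be sites.

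Head-to-head pairs included both patterns. Both partners fell in 13 pairs, among them EDIL3-DT, TGFB2-AS1, NKILA, HOTAIR, H1-10-AS1, KMT2E-AS1 and TENM3-AS1 with their sense genes. SERTAD4-AS1 and CNN3-DT, named after their values were seen, belong to them. SERTAD4-AS1 had 7.68 and 7.56 CPM in anti-MN1 cells and 12.5 and 15.3 CPM in control cells, and CNN3-DT, beside the actin-binding protein gene CNN3, 2.69 and 3.29 CPM in anti-MN1 cells and 5.89 and 6.60 CPM in control cells. In 1 head-to-head pair both rose, SLC16A1-AS1 and the lactate transporter gene SLC16A1, with log2 fold changes of 0.30 ± 0.11 and 0.29 ± 0.04. This pair was also named after its values were seen. In 11 pairs the antisense RNA fell beside a sense gene that did not pass the test.

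In 13 head-to-head pairs the partners were called in opposite directions, 10 with the antisense RNA lower and the sense gene higher. SAP30-DT had 1.47 and 1.94 CPM in anti-MN1 cells and 3.66 and 3.47 CPM in control cells (log2 fold change -1.06 ± 0.31, edgeR adjusted p = 0.00213). SAP30, a subunit of the SIN3 histone deacetylase complex, had 16.9 and 14.7 CPM in anti-MN1 cells and 12.7 and 10.6 CPM in control cells. Both calls were lost without anti-MN1 library 1, and that of SAP30 also without control library 2. SPEN-AS1, named with the rest of these pairs after their values were seen, had 4.35 and 3.29 CPM in anti-MN1 cells and 6.89 and 6.66 CPM in control cells (log2 fold change -0.82 ± 0.21). SPEN, a transcriptional corepressor known from X inactivation, had 183 CPM in both anti-MN1 libraries and 154 and 144 CPM in control cells, and neither call was lost in any of the 12 alternatives. TARS1-DT had 4.22 and 3.17 CPM in anti-MN1 cells and 5.27 and 6.48 CPM in control cells, beside the threonyl-tRNA synthetase gene TARS1 with 758 and 761 CPM in anti-MN1 cells and 610 and 614 CPM in control cells. WASL-DT, whose annotated start is 1 base from that of WASL, had 1.98 and 2.33 CPM in anti-MN1 cells and 3.66 and 4.75 CPM in control cells. WASL, which promotes the nucleation of actin filaments, rose by a log2 fold change of 0.16 ± 0.07 only, and lost its call in 6 of 12 alternatives.

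The others with a lower antisense RNA were EXOC3-AS1, NECTIN3-AS1, SGMS1-AS1, WAC-AS1, ZFAND2A-DT and the clone AC016876.1 beside MPDU1. NECTIN3-AS1 had 9.91 and 12.8 CPM in anti-MN1 cells and 16.3 and 15.2 CPM in control cells, and NECTIN3, an adhesion molecule, rose by a log2 fold change of 0.42 ± 0.07. In 3 pairs the antisense RNA was higher and the sense gene lower, namely NNT-AS1 with the mitochondrial transhydrogenase gene NNT, CARD8-AS1 with the inflammasome sensor gene CARD8, and AC112907.3 with the translation factor gene EIF4A2. NNT-AS1 had 39.3 and 34.9 CPM in anti-MN1 cells and 30.2 and 29.9 CPM in control cells, while NNT had 185 and 189 CPM in anti-MN1 cells and 212 and 205 CPM in control cells. All of these 13 pairs but that of SPEN lost the call of a partner in at least one of the 12 alternatives. AC016876.1 lost its call in 7 of 12 alternatives, AC112907.3 in 6, WAC-AS1 in 5, TARS1-DT, EXOC3-AS1 and ZFAND2A-DT in 3, NECTIN3-AS1 and SGMS1-AS1 in 2, and NNT-AS1 and WASL-DT in 1, as did SGMS1 and WAC in 6 each. The log2 ratio of antisense to sense level changed by -1.31 to -0.46 in the 10 pairs and by 0.45 to 0.89 in the 3, with the groups apart in all 13, as the choice of pairs by opposite calls favours.

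**Figure D5:**
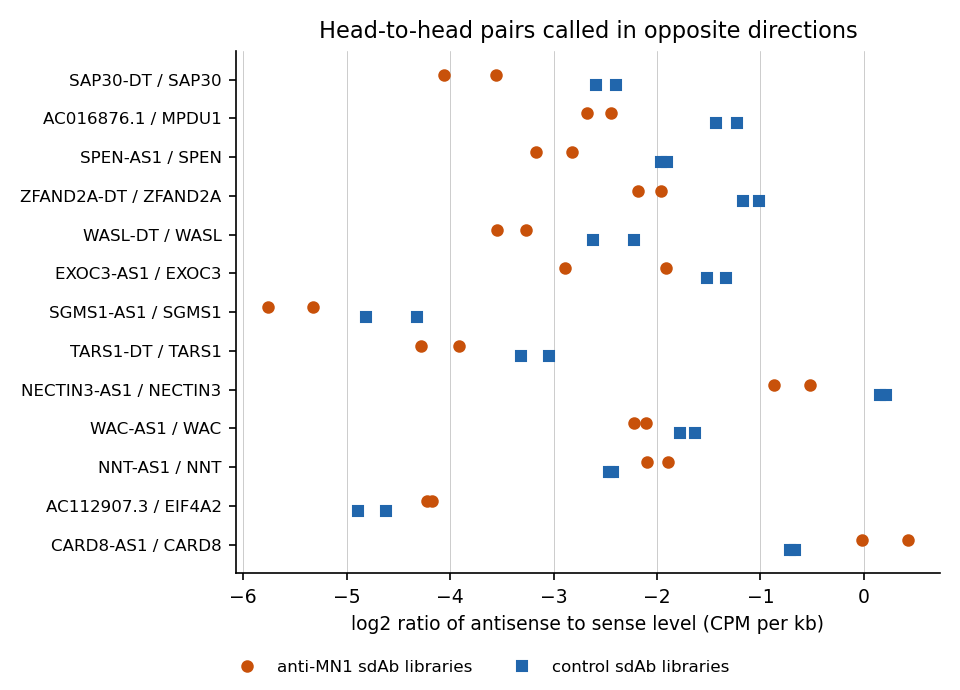
Ratio of antisense to sense level in the 13 head-to-head pairs called in opposite directions. The x axis is the log2 ratio of CPM per kilobase of exon with 0.5 CPM added, each row is a pair and each point a library. The anti-MN1 points lie left of the control points in 10 pairs, by 1.31 for SAP30-DT, and right of them in 3.

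Opposite calls were also found in other layouts. SCIRT had 3.26 and 3.29 CPM in anti-MN1 cells and 5.15 and 6.25 CPM in control cells, and LINC03040, which lies within it and was protein-coding in GENCODE release 29, had 8.63 and 9.43 CPM in anti-MN1 cells and 4.53 and 4.98 CPM in control cells. The call of SCIRT was lost without control library 2. AC139491.3 fell by 1.34 on the log2 scale near THOC3, a subunit of an mRNA export complex that rose by a log2 fold change of 0.24 ± 0.06. The pairs of AC089983.1, AL391427.1 and CYP1B1-AS1 were named after their values were seen. AC089983.1, inside the thioredoxin reductase gene TXNRD1, had 4.99 and 5.62 CPM in anti-MN1 cells and 9.0 and 7.70 CPM in control cells, while TXNRD1 rose by a log2 fold change of 0.72 ± 0.03. Its call was lost without control library 1. By contrast AL391427.1, inside the aldo-keto reductase gene AKR1C2, rose with it, by log2 fold changes of 1.34 ± 0.24 and 0.93 ± 0.03. CYP1B1-AS1 and CYP1B1, a cytochrome P450 induced by the aryl hydrocarbon receptor, both rose, by log2 fold changes of 0.45 ± 0.12 and 1.26 ± 0.07, and the call of CYP1B1-AS1 was lost without control library 2.

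Genes that act on antisense RNAs were examined as a list of 69, all of which were tested. Of these, 32 rose and 2 fell, with a median log2 fold change of 0.12. For comparison, 38.2% of protein-coding genes with a summed count of 1000 or more rose and 19.9% fell. Of 14 genes of the exosome and its cofactors, 7 rose and none fell, with a median of 0.26. The exosome degrades many antisense RNAs from the 3′ end. The 7 were DIS3, EXOSC2, EXOSC5 and EXOSC10, DIS3L, the nuclease of the cytoplasmic exosome, and the cofactors C1D and MPHOSPH6. DIS3, a catalytic nuclease of the nuclear exosome, had 127 and 122 CPM in anti-MN1 cells and 87.8 and 89.7 CPM in control cells (log2 fold change 0.49 ± 0.05). EXOSC2, a subunit of the exosome cap, had 136 and 143 CPM in anti-MN1 cells and 104 CPM in both control libraries. Of 13 adaptor genes that bring RNAs to the exosome 7 rose and none fell. Of 14 Integrator genes 6 rose and 1 fell, of 12 cleavage and termination genes 2 rose and 1 fell, and of 8 genes of nonsense-mediated decay 4 rose and none fell. CSTF2, which binds RNA near the cleavage site, had 105 and 102 CPM in anti-MN1 cells and 70.2 and 65.9 CPM in control cells. Of 8 genes that act on double-stranded RNA 6 rose and none fell, led by the editing enzyme ADARB1 with 133 and 137 CPM in anti-MN1 cells and 98.8 and 95.6 CPM in control cells. With upper-quartile factors 23 of the 69 rose and 10 fell. Whether the levels of these genes bear on those of the antisense RNAs was not tested.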

How the data were processed

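RNA of U2OS cells was sequenced in 2 libraries with the anti-MN1 sdAb and 2 with the control sdAb. The authors deposited raw read counts per Ensembl gene. Bowtie2, HTSeq and the build hg38 (GRCh38) are named, per the submitters' processing notes. Tool versions, strandedness and the gene models used for counting were not given in the sources used here. All 58676 identifiers were found in GENCODE release 29, which gave gene types, coordinates and strands.

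The members, lists and alternatives were chosen with earlier results of these data known. Counts were tested with edgeR 4.0.16 in R 4.3.3 on all 4 libraries: filterByExpr at a minimum count of 10 (17524 genes), TMM factors (0.971 to 1.03), a robust quasi-likelihood fit, a 2-sided test and Benjamini-Hochberg adjustment over all tested genes. The median prior degrees of freedom were 209, so p-values rest largely on the spread shared by all genes. Standard errors are the log2 fold change over the root of the F statistic. Tested on simulated data at the members' levels, edgeR found 10 of 36 genes with a 1.5-fold change, 21 of 27 with a 2-fold change and 36 of 37 with a 3-fold change, and called 4 of 16911 unchanged genes (17107 genes tested). Far fewer genes changed in the simulation than were called in the data, which made the adjustment stricter. These shares may therefore understate what the test finds in the data. A floor of 3 counts corresponds to 0.174 to 0.194 CPM in a library, for counting error only.

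The sense gene is the opposite-strand protein-coding gene with the largest overlap, or else the nearest. Head-to-head means 5′ ends within 2000 bases. The antisense RNAs named are the 12 with a symbol that fell most and the 12 that rose most among those past the threshold with separate groups, the 6 of highest mean CPM, those on a list of often studied antisense RNAs, up to 6 pairs with opposite calls and their sense genes, and 4 of the turnover genes by p. Others are marked in the text. Alternatives were upper-quartile and relative log expression factors, no filter, a minimum count of 30, DESeq2 1.42.0, limma-voom (limma 3.58.1), a replicate block, leaving out each library, other limits on count, overlap and distance, and a fit without robust moderation, which was chosen after seeing the data.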

Additional observations from a re-analysis of the deposited data

How the results depend on the processing

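No named gene that passed the test turned its direction in any alternative. Under upper-quartile factors the sense genes that fell (80) outnumbered those that rose. Those factors gave 49 sense genes higher, 40 pairs with both partners lower, 10 turnover genes lower, 3 head-to-head antisense RNAs higher and a median antisense log2 fold change of -0.33. Without a filter 4 head-to-head antisense RNAs were higher, and at a minimum count of 30, 7 turnover genes were lower. DESeq2 gave 14 antisense RNAs higher and 44 lower, 16 pairs with both lower, 11 in opposite directions, and 3 head-to-head antisense RNAs higher and 17 lower. The 120 antisense RNAs with a summed count of at least 300 had 39 lower and a median of -0.17, and those 165 with under 10% of their exonic bases in other genes' exons had 14 higher; both sets hold fewer members. Leaving out 1 library at a time, antisense RNAs higher ranged from 14 to 20 and lower from 49 to 58, pairs with both lower from 14 to 22 and in opposite directions from 10 to 16. Head-to-head antisense RNAs higher ranged from 1 to 5 and lower from 20 to 26, and turnover genes lower from 2 to 4. A lone library was there assumed to vary like the other group. Otherwise the cause was not tested. The deviations of same-numbered libraries from their group means had a correlation of -0.003 over genes. With 2 libraries per group this cannot show whether same-numbered libraries were prepared together. With the replicate block 22 antisense RNAs were higher and 77 lower, and no named call changed. Of 52 named antisense RNAs with a call, 30 kept it in every alternative that tested them. Depth is a limit, so a missing call does not show an equal level. At these levels the simulated test called 10 of 36 changes of 1.5-fold, under a stricter adjustment than in the data.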
